A study of Mus musculus with 2 samples.

Results

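The secreted and surface components of the intestinal mucus layer were examined as a set of 10 genes: Muc2, Fcgbp, Clca1, Zg16, Tff3, Agr2, Spink4, Retnlb, Klk1 and Muc13. They were taken by gene symbol, and each of the 10 matched 1 row among the 32285 genes listed in the deposited scRNA-Seq matrices. Their levels were followed through 8295 Tomato+ cells of the mouse small intestine, of which 2372 had goblet markers.

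Goblet cells are secretory cells of the gut epithelium that store mucin in granules and release it as a gel over the epithelial surface. Muc2 is the gel-forming mucin of the intestine. Fcgbp is a large secreted protein with repeated von Willebrand domains that is found with Muc2 in the gel, and Clca1 is a secreted metalloprotease that acts on Muc2. Zg16 is a small lectin that binds the cell wall of Gram-positive bacteria. Tff3 is a trefoil peptide secreted with mucin, and Agr2 is a protein disulfide isomerase of the endoplasmic reticulum that is needed for mucin to fold. Spink4 is a Kazal-type protease inhibitor, Retnlb a secreted resistin-like protein that acts on bacteria, and Klk1 a tissue kallikrein, a serine protease. Muc13 is not secreted as gel but spans the apical membrane. Paneth cells, the other granule-filled secretory cells of the small intestine, lie at the crypt base and release antimicrobial peptides.

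The samples were 2 droplet libraries, 1 per genotype. The WT library came from Neurog3Cre; Rosa26tdtomato mice, and the NFKO library from Neurog3Cre-FoxO1 f/f; Rosa26tdtomato mice, in which Cre can delete FoxO1. In both, Cre was driven by Neurog3, a transcription factor of endocrine progenitors, and Tomato marked cells of that lineage, so goblet and Paneth cells entered through lineage labelling of their ancestors. Each library pooled whole small intestines of 4 to 5 mice aged 4 to 6 weeks, without the pancreas, and live Tomato+ cells were sorted before droplet capture. No individual mouse could be told from another, and there was no replicate library. The ratios below therefore compare these libraries and carry no test, and the intervals, all at 95%, cover counting error only.

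The NFKO library held 111249126 UMIs in 5292 kept cells (median 17039 per cell) and the WT library 78722460 UMIs in 3003 cells (median 16883). Genotype was not separable from the sex of the mice, since 2424 WT cells and 357 NFKO cells carried Y-linked UMIs without Xist, while 6 and 4359 carried Xist alone. Foxo1 stood at 11.6 counts per 1000000 UMIs (CPM) in WT and 12.4 CPM in NFKO (ratio 1.07, interval 0.987 to 1.17), and as these are 3′ tags that can lie outside a deleted exon, they do not check the deletion. The heat shock gene Hspa1a was at 461 CPM in WT goblet-like cells and 23.9 CPM in NFKO ones. Among the deposited barcodes, 6 occurred in both libraries, 4 of them among the kept cells.

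The 10 genes lie on 6 chromosomes (mm10, GENCODE M21), all are protein coding, and none overlaps another gene on its own strand. Muc2 (chr7:141690340-141754693), Fcgbp (chr7:28071236-28120862) and Klk1 (chr7:44225360-44229618) lie on the plus strand of chromosome 7 and Zg16 (chr7:127050156-127087328) on its minus strand. Retnlb (chr16:48816856-48818892) and Muc13 (chr16:33794037-33819934) share chromosome 16. Clca1 (chr3:145003817-145032776), Spink4 (chr4:40920052-40931395), Agr2 (chr12:35992907-36004087) and Tff3 (chr17:31125306-31129646) stand alone. Zg16, Klk1 and Muc13 overlap genes on the opposite strand.

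Promoter sequence from RefSeq (GRCm38.p6, the same build) was found for 5 of the 10 genes. Of these 5, Muc2 and Fcgbp are shown because they had the highest ratios of the goblet-like cluster called cluster 1 below to the other goblet-like clusters. Agr2 is shown because it had the lowest. Muc13, also highest in cluster 1, and Klk1 are not shown. Each run ends at the base before the start of the gene in the annotation, on the plus strand, and capitals mark matches on either strand to the E-box words CAGCTG and CAGGTG, the CDX-type word TTTATG, the GATA-type word AGATAA and the forkhead-type word TGTTTAC.
Muc2, chr7:141690090-141690339: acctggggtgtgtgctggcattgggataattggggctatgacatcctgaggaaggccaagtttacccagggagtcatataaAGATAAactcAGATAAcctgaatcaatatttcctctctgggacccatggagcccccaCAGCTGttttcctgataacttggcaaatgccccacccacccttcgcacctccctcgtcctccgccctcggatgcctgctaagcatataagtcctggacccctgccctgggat
Fcgbp, chr7:28070986-28071235: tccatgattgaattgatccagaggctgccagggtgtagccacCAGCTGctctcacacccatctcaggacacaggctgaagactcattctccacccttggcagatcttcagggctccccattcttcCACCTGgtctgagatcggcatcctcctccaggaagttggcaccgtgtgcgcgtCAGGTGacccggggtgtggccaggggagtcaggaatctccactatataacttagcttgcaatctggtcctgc
Agr2, chr12:35992675-35992906: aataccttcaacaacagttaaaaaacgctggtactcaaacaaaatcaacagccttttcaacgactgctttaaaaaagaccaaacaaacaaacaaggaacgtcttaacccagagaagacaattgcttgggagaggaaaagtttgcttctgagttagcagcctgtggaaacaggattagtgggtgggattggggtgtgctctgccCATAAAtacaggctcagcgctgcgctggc
The Muc2 run held 1 CAGCTG and 2 AGATAA words, the Fcgbp run 1 CAGCTG and 2 CAGGTG words, and the Agr2 run 1 TTTATG word. Of the runs not shown, that of Muc13 held 1 TTTATG word and that of Klk1 held 1 CAGGTG word. Over all 32851 promoters of 250 bases in the same table, CAGCTG occurred in 13.0%, CAGGTG in 17.2%, TTTATG in 10.8%, AGATAA in 10.0% and TGTTTAC in 3.2%. None of the 3 runs shown held TGTTTAC. A match is a description of the letters and not a binding site.

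Cells were clustered without the 10 genes and the clusters were named from other markers, so that the levels below did not choose the cells. The goblet-like cells formed 3 clusters. Cluster 0 (159 WT and 731 NFKO cells) was led by Mptx1, Hsd11b2, Cd244a, Gpr20 and Gsdma2. Cluster 1 (90 WT and 784 NFKO cells) was led by Ido1, Ly6m, Frmd3, Gsta4 and Ptgdr, and cluster 3 (584 WT and 24 NFKO cells) by Edn2, Areg, Lrg1, Hspa1a and Mtnr1a. Goblet-like cells made up 27.7% of WT and 29.1% of NFKO cells. Their make-up differed, with 70.1% of the WT goblet-like cells in cluster 3 against 1.56% of those of NFKO, and 10.8% against 50.9% in cluster 1. Cluster 1 had the lowest depth of the 3, with a median of 4834 UMIs per cell in WT and 7286 in NFKO, where cluster 0 had 26647 and 29443.

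The 10 genes held 15.02% of all UMIs of WT goblet-like cells and 23.0% of those of NFKO. In cluster 1 they held 27.6% in WT and 43.7% in NFKO, and in single NFKO cells of that cluster up to 68.8%. In cluster 0 the share was 16.5% and 14.1%, and in cluster 3 it was 14.0% and 13.1%. Tff3 was the largest single contributor in WT goblet-like cells, with 27.8% of the UMIs of the 10 genes, and Zg16 in NFKO, with 34.7% against 16.8% in WT. Outside the goblet-like cells, the share was 3.15% and 3.66% in Paneth-like, 0.449% and 0.640% in enteroendocrine-like (EEC-like), 0.456% and 1.04% in tuft-like and 2.48% and 1.39% in enterocyte-like cells of WT and NFKO.

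**Figure D1:**
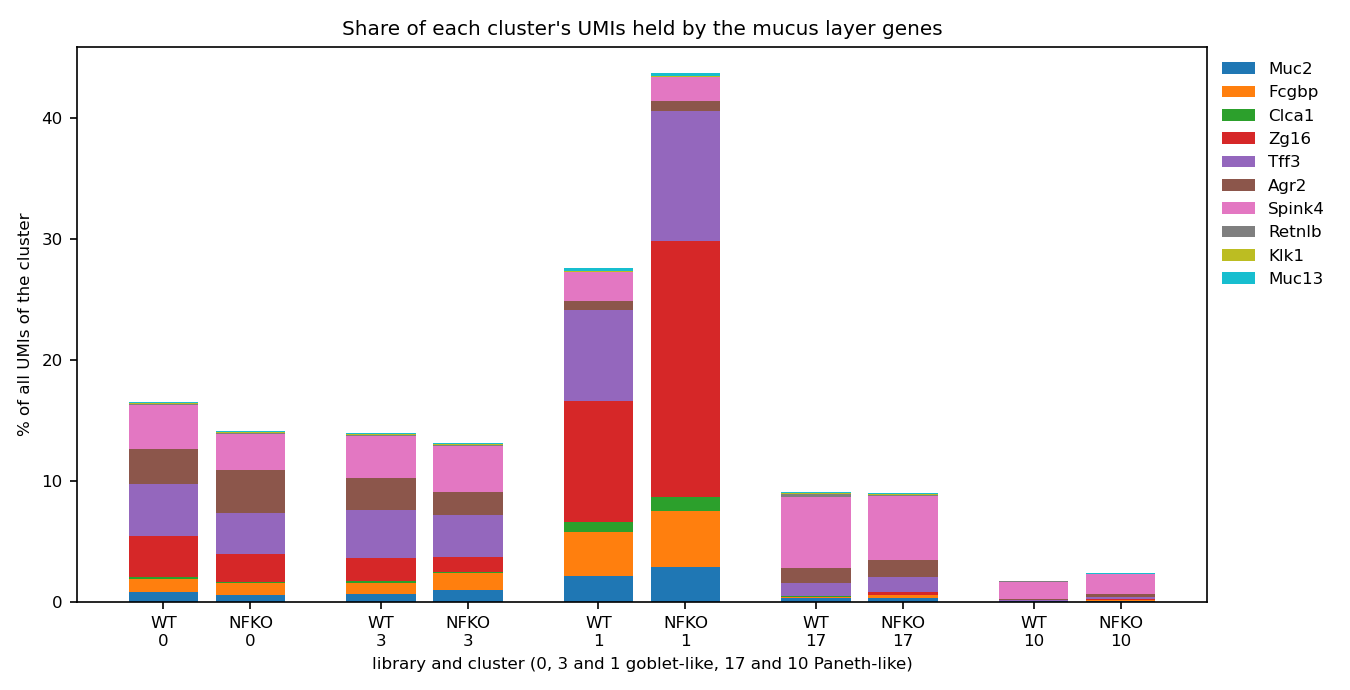
Share of all UMIs held by each of the 10 genes (y axis, percent, stacked) in 3 goblet-like and 2 Paneth-like clusters of the WT and NFKO libraries. Cluster 1 reaches 27.6% in WT and 43.7% in NFKO, and in cluster 17 most of the 9.04% and 9.02% is Spink4.

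Across the 5 marker-named classes, 8 of the 10 genes had their highest CPM in goblet-like cells of both libraries. The exceptions were Retnlb, highest in Paneth-like cells of both, and Muc13, highest in enterocyte-like cells of WT and in goblet-like cells of NFKO. Of the 80 pairs of neighbours in these orders of CPM, 8 had overlapping intervals and 72 did not. The intervals leave out the spread between cells, and some places in the orders rest on few cells. For Zg16 in WT, 3 cells held 76.6% of the UMIs of tuft-like cells and 27.2% of those of enterocyte-like cells. CPM is also a share of all UMIs, and 18 Paneth markers held 580449 CPM in WT and 547257 CPM in NFKO Paneth-like cells. The median Paneth-like cell held 1502 and 1127 Spink4 UMIs, against 593 and 364 in the median goblet-like cell. For Muc13 the medians were 26 and 23 against 23 and 24.

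Among the gel components, Muc2 was at 7473 CPM in WT and 12981 CPM in NFKO goblet-like cells, and next highest in enterocyte-like cells of WT, at 1489 CPM, where the median cell held 1 Muc2 UMI and 3 cells held 21.3% of them, and in Paneth-like cells of NFKO. Fcgbp was at 10301 and 20495 CPM in goblet-like cells. In Paneth-like cells Muc2 was at 1107 and 1395 CPM, which was 14.8% and 10.8% of the goblet-like level, while Fcgbp was at 247 and 802 CPM, or 2.40% and 3.91%. The Paneth-like cells thus held Muc2 UMIs in a higher proportion to the goblet-like level than Fcgbp UMIs in both libraries.

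Clca1 and Zg16 had the lowest Paneth-like and EEC-like levels relative to their goblet-like level, in both libraries. Clca1 was at 1645 CPM in WT and 4318 CPM in NFKO goblet-like cells, and at 9.35 and 68.0 CPM in Paneth-like cells. Zg16 was at 25218 and 79850 CPM in goblet-like cells and at 54.2 and 1231 CPM in Paneth-like cells. In WT, Zg16 was in Paneth-like cells at 0.215% of its goblet-like level, the lowest proportion of the 10 genes in that class.

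Tff3 was the most abundant of the 10 in WT goblet-like cells, at 41717 CPM, and reached 55991 CPM in NFKO. Unlike Zg16, it kept a level of 2140 and 2959 CPM in EEC-like cells. Agr2 was at 26588 and 27301 CPM in goblet-like cells, nearly the same in both libraries, and at 3196 and 4136 CPM in Paneth-like cells.

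Spink4 and Retnlb were shared with Paneth-like cells. Spink4 was at 34763 and 26942 CPM in goblet-like and at 22988 and 23859 CPM in Paneth-like cells. Retnlb was at 545 and 419 CPM in goblet-like and at 661 and 556 CPM in Paneth-like cells. Their CPM differed between the 2 Paneth-like clusters. Cluster 17 (123 WT and 94 NFKO cells), led by Rnase1, 1810028F09Rik, A4gnt, Nppc and Lamb1 and holding 7 Paneth and 4 goblet markers, had Spink4 at 58488 and 52931 CPM, 168% and 196% of the goblet-like level. It had Retnlb at 2285 and 1554 CPM. Cluster 10 (146 and 162 cells), led by the defensin genes Gm14851 and Defa22, had Spink4 at 14414 and 16758 CPM and Retnlb at 268 and 313 CPM. In Spink4 UMIs the clusters were closer, as cluster 10 cells were deeper, with 1701 and 1405 in the median cell of cluster 17 and 1342 and 826 in that of cluster 10. The intermediate level of the other genes followed the same order, with Agr2 at 12603 and 13885 CPM and Tff3 at 11161 and 12611 CPM in cluster 17 against 924 and 1755 CPM and 656 and 1805 CPM in cluster 10.

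Klk1 was at 820 and 846 CPM in goblet-like cells and at 197 and 237 CPM in Paneth-like cells. In goblet-like cells none of the 6 Klk1b genes counted held more than 5 UMIs, where Klk1 held 15439 and 25939. These counts do not show how many reads shared with the near-identical Klk1b genes were split or lost. Muc13 was the least cell type-bound of the set. It was at 1118 and 1296 CPM in goblet-like, 1212 and 1257 CPM in enterocyte-like, 604 and 624 CPM in tuft-like, 441 and 444 CPM in EEC-like, and 366 and 381 CPM in Paneth-like cells.

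**Figure D2:**
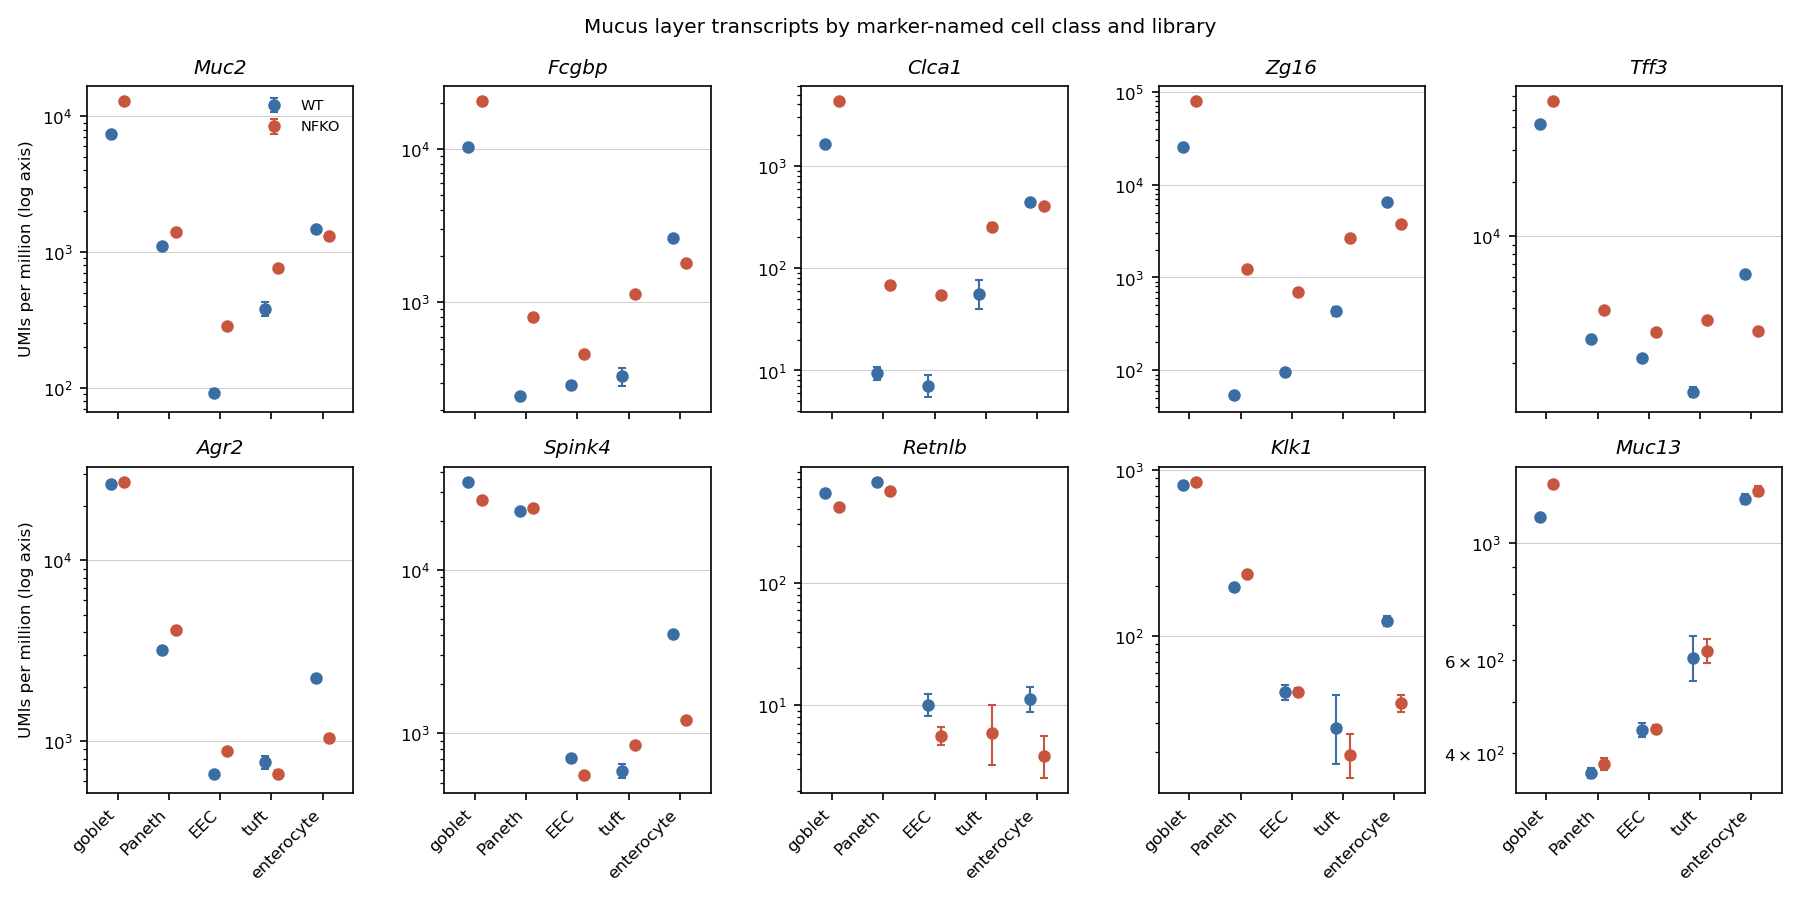
CPM (log axis) of each of the 10 genes in 5 marker-named classes of the WT (blue) and NFKO (red) libraries, with exact Poisson intervals for counting error, and EEC for enteroendocrine-like. Retnlb had 0 UMIs in WT tuft-like cells and has no point there. Zg16 spans from 54.2 CPM in Paneth-like to 25218 CPM in goblet-like cells of WT, while Muc13 stays between 366 and 1212 CPM.

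Within each library, the set divided into genes high and genes low in cluster 1. Against all other goblet-like cells of its library, cluster 1 had 6 of the 10 genes at least 1.5-fold higher in WT and the same number in NFKO, and 2 lower in WT and 3 in NFKO. Over all genes, 21.5% of 2653 were higher and 42.6% lower there in WT, and 17.2% of 2659 higher and 52.3% lower in NFKO. Compared with cluster 0, cluster 1 had 6 genes of the set higher and 3 lower in both libraries, where among all genes past the count minimum 17.5% of 2661 were higher and 52.1% lower in NFKO, and 24.8% of 2601 higher and 41.9% lower in WT. Compared with cluster 3, it had 6 higher and 2 lower in WT, beside 20.5% and 43.4% of 2664 genes, and 6 higher and 3 lower in NFKO, beside 13.2% and 50.3% of 2698. The median gene in cluster 1 was at a log2 difference of -0.64 from cluster 0 in NFKO and of -0.40 from cluster 3 in WT. How far the larger share of mucus transcripts or the lower depth of cluster 1 sets this was not tested.

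Among the genes higher in cluster 1, Clca1 and Zg16 had the highest ratios in NFKO against cluster 0 and in WT against cluster 3, while against cluster 0 of WT the order was Clca1 (4.01), Fcgbp (3.48) and Zg16 (2.99). Clca1 was at 1132 CPM in cluster 0 and 11684 CPM in cluster 1 of NFKO, a ratio of 10.3 (10.2 to 10.5), and at 1239 CPM in cluster 3 and 7911 CPM in cluster 1 of WT, a ratio of 6.39 (6.19 to 6.58). Zg16 went from 22789 to 212141 CPM in NFKO (9.31, 9.28 to 9.34) and from 19049 to 100170 CPM in WT (5.26, 5.21 to 5.30). Muc2 was 4.92-fold and Fcgbp 4.82-fold higher in cluster 1 than in cluster 0 of NFKO, and 3.12-fold and 4.17-fold higher than in cluster 3 of WT. Tff3 was 3.17-fold and 1.89-fold higher, and Muc13 2.02-fold and 1.75-fold higher, in the same comparisons.

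Agr2 and Retnlb went the other way. Agr2 was at 35720 CPM in cluster 0 and 8705 CPM in cluster 1 of NFKO (0.244, 0.242 to 0.245), and at 26816 CPM in cluster 3 and 7524 CPM in cluster 1 of WT (0.281, 0.273 to 0.288). The median cell of cluster 1 held 16 Agr2 UMIs in NFKO and 7 in WT, where that of cluster 0 held 1006 and 723. Retnlb was at 552 CPM in cluster 0 and 104 CPM in cluster 1 of NFKO (0.188), and at 603 CPM in cluster 3 and 33.4 CPM, from 23 UMIs, in cluster 1 of WT (0.0554). Spink4 was at 0.666 of its cluster 0 level in NFKO and at 0.702 of its cluster 3 level in WT. In NFKO this drop depended on the totals. With the UMIs of the 10 genes left out of them, Spink4 in cluster 1 of NFKO was at 1.01 times its level in the other goblet-like cells, while Agr2 stayed at 0.376 and Retnlb at 0.285. Klk1 depended on the totals in NFKO too. It was at 1.04 times its cluster 3 level and 0.886 times its cluster 0 level in WT and at 0.764 times its cluster 0 level in NFKO, and with the 10 genes out of the totals it was at 1.17 times its level in the other goblet-like cells of NFKO.

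Clusters 3 and 0 lay closer together. In WT, 0 of the 10 genes were at least 1.5-fold higher in cluster 3 than in cluster 0, beside 5.82% of 2286 genes, and Clca1 (0.628) and Zg16 (0.569) were lower, beside 0.481%. In NFKO, where cluster 3 had 24 cells, Muc2 (1.62) and Fcgbp (1.52) were higher, beside 12.1% of 2693 genes, and Zg16 (0.524) and Agr2 (0.543) were lower, beside 9.69%.

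Zg16 varied widely from cell to cell inside a cluster. In cluster 0 of WT the 5th percentile of single cells was 0 CPM, the median 14941 CPM and the 95th percentile 117990 CPM. In cluster 0 of NFKO the median cell held 7459 CPM and the lower and upper quartiles were 620 and 30534 CPM. Agr2 was steadier in the same cells, at 28235, 34867 and 41852 CPM for the lower quartile, the median and the upper quartile. In cluster 1 of NFKO the 5th percentile of single cells was 43735 CPM of Zg16, above the upper quartile of cluster 0.

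**Figure D3:**
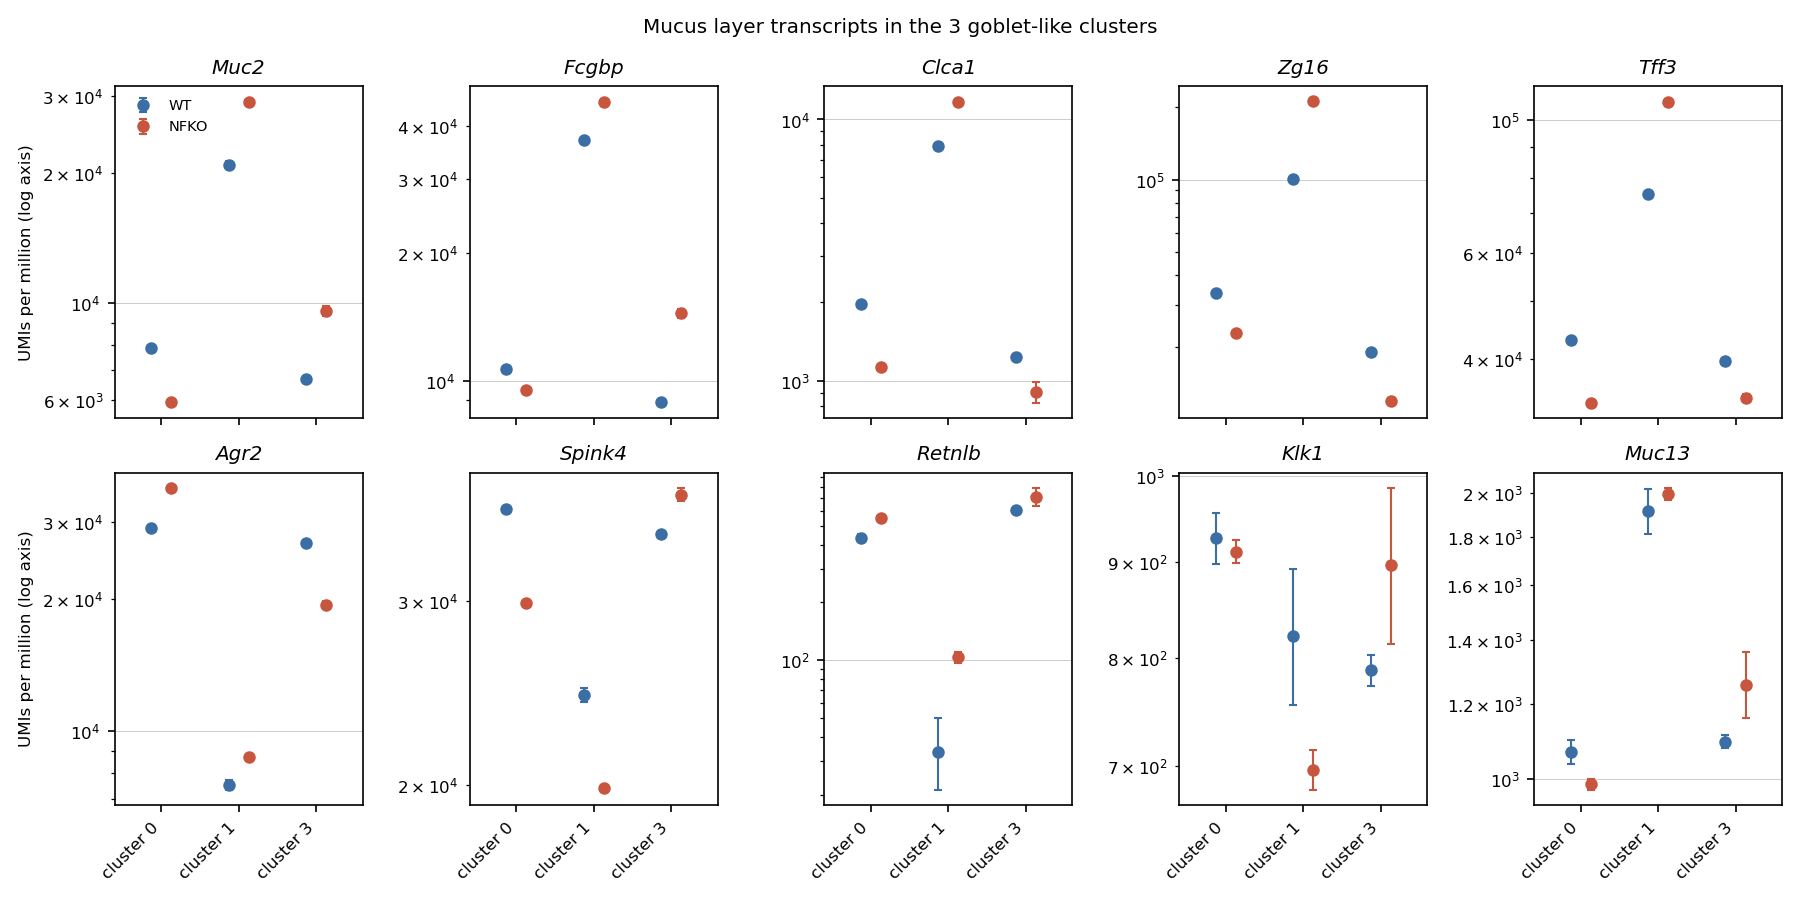
CPM (log axis, different in each panel) of the 10 genes in the goblet-like clusters 0, 1 and 3 of the WT (blue) and NFKO (red) libraries, with exact Poisson intervals. Cluster 1 is the highest of the 3 in both libraries for Muc2, Fcgbp, Clca1, Zg16, Tff3 and Muc13, and the lowest for Agr2, Spink4 and Retnlb.

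Genes of the secretory machinery were counted in the same cells from lists chosen with earlier results of these data known. Of the list for mucin folding and secretory stress, 23 genes were counted in cluster 1 against cluster 0 of NFKO. Of these, 19 were at least 1.5-fold lower and 0 higher, with a median log2 difference of -1.48. Over the 10271 genes at the same minimum of 50 UMIs, 44.9% were lower and 16.2% higher, with a median of -0.44. In WT against cluster 3, 16 of 23 were lower and 1 was higher, with a median of -0.88, where of 9182 genes 39.2% were lower and 19.3% higher, with a median of -0.25. These shares over all genes are the ones to read the other lists against in the same comparisons. Fkbp11, a prolyl isomerase of the endoplasmic reticulum, was at 545 CPM in cluster 0 and 34.1 CPM in cluster 1 of NFKO, and Sdf2l1, a chaperone cofactor, at 331 and 45.2 CPM. The stress sensor Ern1 was at 11.7 and 15.4 CPM and the oxidase Ero1l at 45.4 and 48.5 CPM, the highest ratios of the list. The heat shock and stress list shifted further than the folding list. All 12 of its genes were at least 1.5-fold lower in cluster 1 than in cluster 0 of NFKO, with a median log2 difference of -2.14. Against cluster 3 of WT, 12 of 12 were lower too, with a median of -1.96.

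The mucin O-glycosylation list had 9 of 19 genes lower and 1 higher in cluster 1 than in cluster 0 of NFKO, and 6 of 18 lower and 3 higher than in cluster 3 of WT, close to the 44.9% and 39.2% of all genes that were lower. Gne, the first enzyme of sialic acid synthesis, was at 68.9 and 9.28 CPM in NFKO, and the sialyltransferase St3gal4 at 75.3 and 171 CPM. The lowest ratio was that of St6galnac6, with 61 and 2 UMIs. Of the list for mucus granules and release, 6 of 15 genes were higher and 4 lower in NFKO, and 5 of 11 higher and 1 lower in WT. Sytl2, a granule docking protein, was at 129 and 458 CPM in NFKO and at 141 and 520 CPM in WT. The protease Mep1b was at 2.39 and 15.3 CPM in NFKO, while the channel Best2 was at 5.07 and 1.40 CPM and the inflammasome gene Nlrp6 at 2.92 and 1.62 CPM. Among 13 goblet fate regulators, Sox9 was at 90.4 and 8.64 CPM and the Notch ligand Dll1 at 79.8 and 31.4 CPM in NFKO, the lowest ratios, and Klf4 was at 443 and 840 CPM and Hnf4a at 85.1 and 152 CPM, the highest. The list had 3 genes higher and 4 lower in NFKO, and 2 and 2 in WT, beside 16.2% and 44.9%, and 19.3% and 39.2%, of all genes.

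Among the paralogs of the set, Muc5b had 0 UMIs in goblet-like cells of both libraries, and Muc5ac, the gastric gel mucin, had 0 in WT and 1 in NFKO. Of 12 paralogs counted in cluster 1 against cluster 0 of NFKO, 9 were higher and 3 lower, and of 9 counted in WT against cluster 3, 5 were higher and 2 lower, beside 16.2% and 44.9% of all genes in NFKO and 19.3% and 39.2% in WT. This list also held Lypd8, an anchored surface protein of another family. Muc3, a membrane mucin, was at 7.32 and 176 CPM in NFKO, and Clca4a, with 3 and 63 UMIs, had the highest ratio. Clca3b was at 44.1 and 2.91 CPM and Tff2 at 8.51 and 2.59 CPM, the lowest ratios.

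The comparison of genotypes in goblet-like cells put 4 of the 10 genes at least 1.5-fold higher in NFKO and 0 lower, beside 4.57% of 2385 genes higher and 3.9% lower. Zg16 had the highest ratio, at 3.17 (3.16 to 3.18), followed by Clca1 at 2.62 (2.59 to 2.66), Fcgbp at 1.99 (1.9794 to 1.9997) and Muc2 at 1.74 (1.73 to 1.75). Tff3 at 1.34, Muc13 at 1.16, Klk1 at 1.03 and Agr2 at 1.03 did not reach 1.5-fold, nor did Spink4 at 0.775 and Retnlb at 0.769. In male-typed cells alone (696 WT and 109 NFKO), Zg16 was 4.40-fold, Clca1 2.72-fold, Fcgbp 2.25-fold and Muc2 1.91-fold higher. The male-typed cells differed in make-up too, with 57 of the WT and 52 of the NFKO cells in cluster 1.

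Inside the clusters the genotype ratios were different. In cluster 0, none of the 10 genes was at least 1.5-fold higher in NFKO and Clca1 was lower, beside 5.12% of 2381 genes higher and 1.39% lower. Zg16 was at 33505 CPM in WT and 22789 CPM in NFKO of that cluster (0.680, 0.676 to 0.684), Clca1 at 1972 and 1132 CPM (0.574, 0.560 to 0.589), Muc2 at 7905 and 5913 CPM (0.748) and Fcgbp at 10650 and 9474 CPM (0.890). Agr2 was at 28962 and 35720 CPM (1.23, 1.23 to 1.24). The 4 genes with the highest ratios in all goblet-like cells were thus lower in NFKO than in WT within cluster 0.

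In cluster 1, Zg16 was again higher in NFKO. It was at 100170 CPM in WT and 212141 CPM in NFKO (2.12, 2.10 to 2.13), and Retnlb at 33.4 and 104 CPM (3.10, 2.06 to 4.92, from 23 UMIs in WT), so that 2 of the 10 were at least 1.5-fold higher and 0 lower, beside 7.29% of 2223 genes higher and 18.9% lower. Clca1 at 1.48, Tff3 at 1.43, Muc2 at 1.39 and Fcgbp at 1.23 were below that fold, but the totals decided this. With the UMIs of the 10 genes left out of them, an alternative chosen after the data were seen, 6 genes were at least 1.5-fold higher and 0 lower, with Zg16 at 2.72, Clca1 at 1.90, Tff3 at 1.84, Muc2 at 1.79 and Fcgbp at 1.59. The median single cell of cluster 1 was at 5466 CPM of Clca1 in WT and 10925 CPM in NFKO, at 43386 and 103220 CPM of Tff3, and at 19663 and 36628 CPM of Muc2. Of the WT Zg16 UMIs in cluster 1, 26.4% came from 3 of the 90 cells, and the median cell held 194 Zg16 UMIs in WT and 789 in NFKO. In cluster 3, which had 24 NFKO cells, Fcgbp was at 8881 and 14427 CPM (1.62) and Zg16 at 19049 and 11950 CPM (0.627), with 11% of 2636 genes higher and 5.69% lower, and 3 cells held 67.9% of the Zg16 UMIs of NFKO.

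The class ratios moved with the make-up of the class. Without cluster 1, 0 of the 10 genes were at least 1.5-fold higher, with Zg16 at 1.01, Clca1 at 0.801, Fcgbp at 1.03 and Muc2 at 0.861. With the 3 clusters weighted by their share of WT cells in both libraries, Zg16 was at 1.17, Clca1 at 1.01, Fcgbp at 1.38 and Muc2 at 1.30, and again 0 genes were at least 1.5-fold higher. This weighting puts 70.1% of the NFKO value on cluster 3, which had 24 NFKO cells. Cluster 3 was also marked by Hspa1a. In the class ratios, the genotype, the heat shock level and the cluster a cell falls in thus cannot be told apart. In cluster 0 the heat shock and stress list had 5 of 12 genes higher and 3 lower in NFKO. It had 0 of 11 higher and 9 lower in cluster 1, and 0 of 12 higher and 7 lower in cluster 3. How this bears on the ratios of the 10 genes was not tested.

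**Figure D4:**
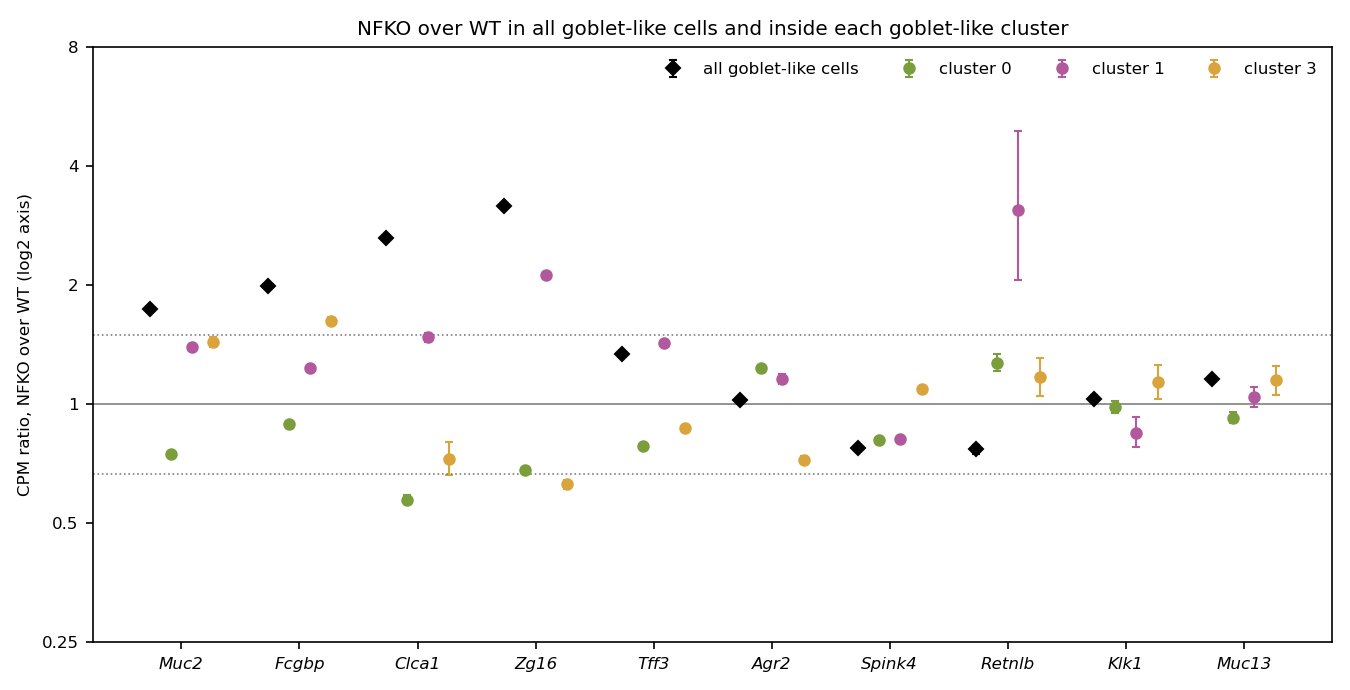
NFKO over WT ratio of CPM (log2 axis) for the 10 genes in all goblet-like cells (black diamonds) and in clusters 0, 1 and 3 (coloured circles), with exact binomial intervals for counting error and dotted lines at 1.5-fold either way. For Zg16 the ratio is 3.17 over all goblet-like cells, 0.680 in cluster 0 and 2.12 in cluster 1.

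The other lists in all goblet-like cells, NFKO against WT, held few genes past 1.5-fold, apart from heat shock genes and paralogs. Of the 10970 genes with at least 50 UMIs, 7.87% were higher and 6.1% lower. The heat shock and stress list had 8 of 12 lower and 0 higher, from Hspa1a (461 and 23.9 CPM) and Hspa1b (306 and 21.3 CPM) to Egr1 (580 and 457 CPM) and Fos (974 and 900 CPM). The O-glycosylation list had 0 of 20 higher and 1 lower, Fut2, a fucosyltransferase, at 217 and 128 CPM. It ran from Fut2 and B3gnt3 (83.5 and 59.9 CPM) to Gcnt3 (263 and 332 CPM) and Gcnt1 (16 and 39 UMIs). The folding list had 0 of 24 higher and 1 lower, Derl3, with 39 and 35 UMIs, and Dnajb9 next at 112 and 80.6 CPM. Its highest ratios were Ero1l (41.0 and 46.8 CPM) and Ern1 (11.9 and 12.9 CPM). The granule list had 2 of 16 higher and 0 lower, Best2, with 5 and 122 UMIs, and Mep1b, with 51 and 196. Its lowest were Nlrp6 (3.35 and 2.48 CPM) and Tgm2 (12.7 and 9.63 CPM). Of 13 regulators, Atoh1, the factor that sets secretory fate, was the gene higher, at 148 and 240 CPM, and Sox9, of the crypt base, the gene lower, at 139 and 66.1 CPM. Between them, Cdx2 was at 52.5 and 64.2 CPM and Tle4 at 15.7 and 11.1 CPM. The paralogs had 8 of 14 higher and 2 lower, most at low counts, with Tff1 at 4 and 91 UMIs, Clca4a at 3 and 66, Muc4 at 384 and 412, and Clca3a2 at 49 and 48. Lypd8, counted with that list though of another family, was at 3927 and 5844 CPM, above Clca1 in both libraries.

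In Paneth-like cells, 3 of the 10 genes were at least 1.5-fold higher in NFKO and 0 lower, beside 6.28% of 955 genes higher and 3.46% lower, and a median log2 difference of 0.19 over those genes. Zg16 was at 54.2 CPM in WT and 1231 CPM in NFKO (22.7, 21.4 to 24.1), Clca1 at 9.35 and 68.0 CPM (7.27, 6.24 to 8.51), and Fcgbp at 247 and 802 CPM (3.24, 3.14 to 3.35). These were the genes furthest below their goblet-like level in that class in WT. Zg16 was detected in 10.4% of WT and 64.7% of NFKO Paneth-like cells when each cell was thinned to 2000 UMIs, and in 89.6% and 100% without thinning, at median depths of 52758 and 38947 UMIs. The median Paneth-like cell held 3 and 27 Zg16 UMIs. Spink4, at 1.04, and Muc13, at 1.04, were nearly the same in both libraries, and Retnlb was at 0.842. Cluster 10 had 5 of the 10 genes higher and 0 lower, with Tff3 at 2.75 and Agr2 at 1.90 added, beside 14.8% of 691 genes higher and 3.62% lower. Cluster 17 had 3 higher and 0 lower, beside 3.75% and 3.21% of 2024 genes. In cluster 17 Retnlb was at 0.680 (0.656 to 0.704), still short of 1.5-fold, and detected in 63.4% of WT and 51.1% of NFKO thinned cells, and in cluster 10 it was at 1.17.

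EEC-like cells served as the class that should lack the gel components Muc2, Fcgbp, Clca1 and Zg16. Here 4 of the 10 were at least 1.5-fold higher in NFKO, beside 2.99% of 3548 genes, and 1 was lower, beside 3.35%. Clca1 was at 7.10 CPM in WT and 55.1 CPM in NFKO (7.77, 6.04 to 10.2). Zg16 was at 95.2 and 700.4 CPM (7.36, 6.87 to 7.89), Muc2 at 90.9 and 283 CPM (3.11, 2.89 to 3.35) and Fcgbp at 289 and 463 CPM (1.61, 1.54 to 1.68). Retnlb was at 10.1 and 5.61 CPM (0.554), with 61.1% of its 90 WT UMIs in 3 cells, and without the 3 highest cells of each library it was at 0.989. It was below the 50 CPM that the 3548 genes needed. With no CPM minimum, 8.72% of 13960 genes were lower. Thinned to 2000 UMIs, 17.8% of WT and 70.4% of NFKO EEC-like cells had a Zg16 UMI, and 60.6% and 99.8% did so unthinned at median depths of 12664 and 15856 UMIs.

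The median cell of the EEC-like, tuft-like and enterocyte-like classes held a like number of Zg16 UMIs. The median NFKO cell held between 8 and 10 Zg16 UMIs in each of the 8 EEC-like clusters, 9 in tuft-like and 10 in enterocyte-like cells, and the median WT cell held 1 in each of the 8 clusters, 1 in tuft-like and 2 in enterocyte-like cells. The deeper Paneth-like cells held more, with a median of 27 in NFKO (35 in cluster 10 and 16 in cluster 17) and 3 in WT. Muc2 had a median of 2 to 4 UMIs per cell in the same 8 clusters of NFKO. Muc2 in Paneth-like cells stood higher, at a median of 67 UMIs per cell in WT and 66.5 in NFKO. Whether the higher values of Zg16, Clca1, Muc2 and Fcgbp in Paneth-like and EEC-like cells of NFKO were expression or free RNA was not tested. In barcodes that failed the cell filter, the 10 genes held 0.631% of UMIs in WT and 2.17% in NFKO. How far free RNA enters the other ratios was not tested.

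As a percent of the goblet-like level, Zg16 was the lowest of the 10 genes in EEC-like cells, at 0.377% in WT and 0.877% in NFKO. Fcgbp was at 2.80% and 2.26% there and Muc2 at 1.22% and 2.18%. Some genes stood further above Zg16 in single endocrine clusters. Cluster 4, led by Ooep, Irs4, Gm38655, Zcchc12 and Neurog3 and holding Ghrl, had Tff3 at 4896 CPM in WT and 6291 CPM in NFKO, 11.7% and 11.2% of the goblet-like level, where its Zg16 was at 0.384% and 0.802% and its Agr2 at 0.338% and 0.691%. Tff3 was found in 85.1% and 93.7% of its thinned cells. Its Fcgbp held 1292 UMIs in WT and 3388 in NFKO, against 213 and 3597 of Zg16. In goblet-like cells Fcgbp held 194011 and 628099 UMIs, against 474953 and 2447155 of Zg16. Cluster 21 (13 WT and 70 NFKO cells), led by Pzp, Adamts5, Cyp2j5, Cck and Onecut3, had both Tff3 and Agr2. Its Agr2 was at 7270 CPM in WT and 6984 CPM in NFKO, 27.3% and 25.6% of the goblet-like level, and its Tff3 at 3826 and 6011 CPM, or 9.17% and 10.7%. The median cell of cluster 21 held 107 and 133 Agr2 UMIs, and a thinned cell had Agr2 in 100% of WT and 98.6% of NFKO cases. Its Clca1 was at 0.305% and 0.750% of the goblet-like level, from 1 UMI in WT, and its Zg16 at 0.358% and 0.622%. In the other 7 EEC-like clusters the median cell held 1 to 9 Agr2 UMIs.

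Klk1 was at 10.5% and 8.07% of its goblet-like level in cluster 2, the Gip cluster, and at 7.86% and 8.30% in cluster 7, led by Tac1, Rab3c, Vim, Vcan and Pappa2, which had endocrine markers but was kept apart because the stromal marker Vim was among its leading genes. Cluster 7 made up 5.69% of WT and 4.86% of NFKO cells, and its Zg16 was at 0.317% and 1.10%. There 6 of the 10 genes were at least 1.5-fold higher in NFKO, beside 4.37% of 3779 genes, and Muc13 was lower (0.613), beside 4%. Muc13 was at 29.6% to 57.4% of the goblet-like level over the 8 EEC-like clusters of WT and at 26.0% to 41.6% over those of NFKO, with an NFKO over WT ratio of 1.01 (0.970 to 1.04) in the class as a whole.

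**Figure D5:**
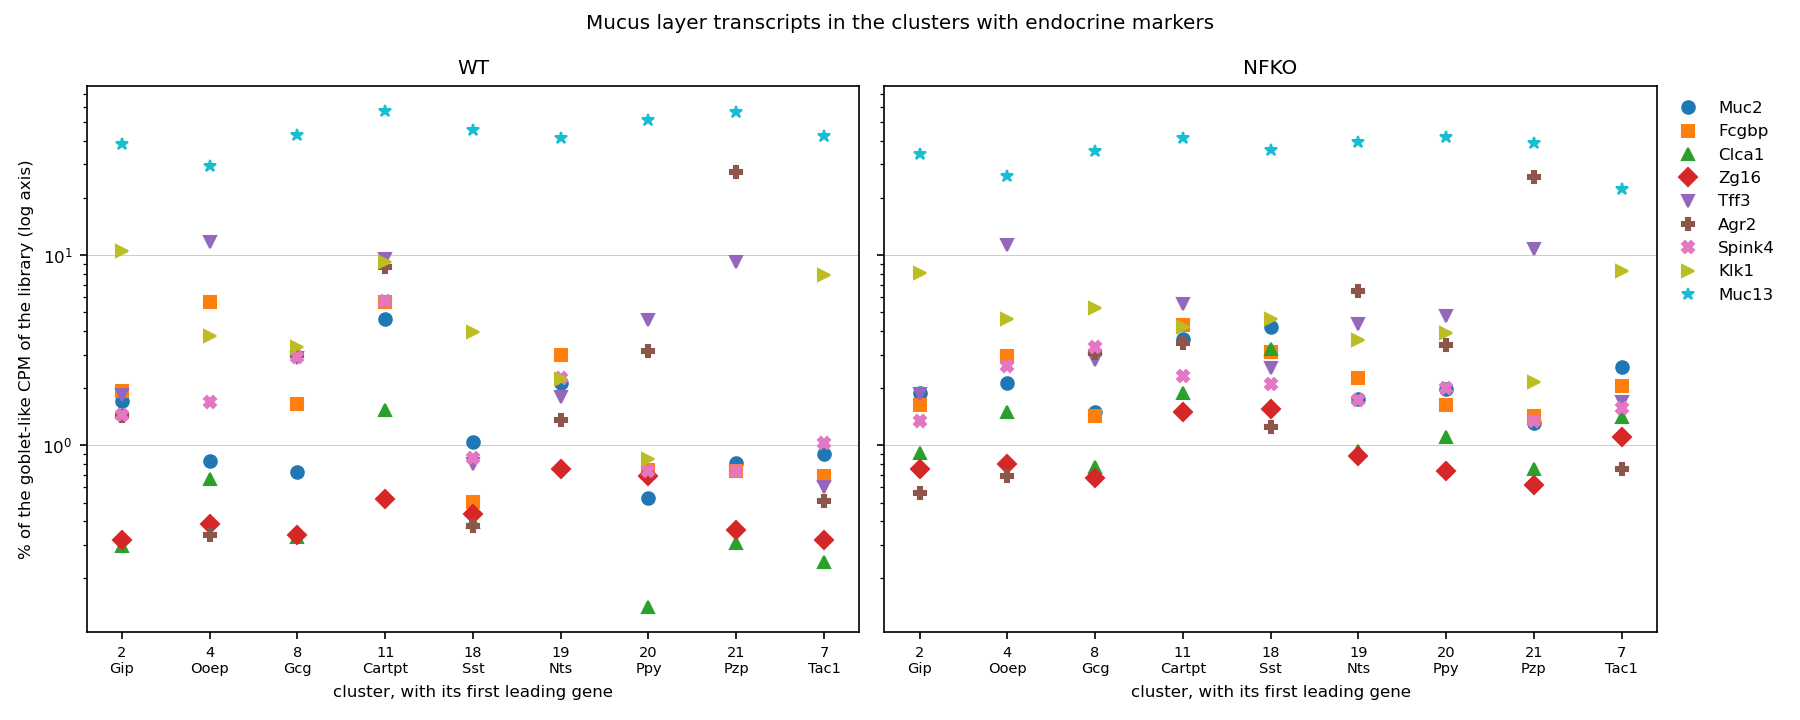
Level of 9 of the 10 genes in the clusters with endocrine markers, as a percent of the goblet-like CPM of the same library (log axis), for WT (left) and NFKO (right). Cluster 14, which had endocrine markers but was left unnamed for its low depth, is not drawn. Retnlb is left out for its low counts, and genes without a UMI have no point. Muc13 lies above the other genes in each cluster, Agr2 rises to 27.3% and 25.6% in cluster 21, and Zg16 stays between 0.316% and 1.55% in the clusters drawn, where cluster 14 had 1.10% in WT and 2.88% in NFKO.

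In tuft-like cells (89 WT and 171 NFKO), 5 genes with UMIs in both libraries were at least 1.5-fold higher in NFKO, beside 22.4% of 3435 genes. Zg16 led at 431 and 2631 CPM, but 3 cells held 76.6% of its WT and 52.6% of its NFKO UMIs. Retnlb had 0 UMIs in WT, with an upper limit of 5.48 CPM, and 14 in NFKO. The enterocyte-like class was 2 clusters whose summed UMIs went opposite ways. Cluster 9 (122 WT and 239 NFKO cells) had 6 of the 10 genes at least 1.5-fold higher in NFKO and 1 lower, beside 32% and 18.5% of 2996 genes, with Zg16 at 1296 and 4494 CPM (3.47), Muc2 at 2.37 and Tff3 at 1.80. Cluster 16 (130 and 108 cells) had 0 higher and 10 lower, beside 5.98% and 4.74% of 2744 genes, with Zg16 at 7019 and 3105 CPM (0.442) and Tff3 at 0.433. The median cell of cluster 16 did not go lower, and gave the 10 genes 0.193% of its UMIs in WT and 0.211% in NFKO. The upper quartile there was 2.07% and 0.938%. The median cell of cluster 9 gave them 0.361% and 0.885%. In the class as a whole, 6 of the 10 were at least 1.5-fold lower in NFKO and 0 higher, beside 6.14% of 2851 genes lower and 13.2% higher. Spink4 was at 4076 CPM in WT and 1212 CPM in NFKO (0.297), and Tff3 at 6190 and 3001 CPM (0.485), while the median cell held 5 Spink4 UMIs in both libraries and 3 cells held 24.9% of the Spink4 UMIs of WT and 31.9% of those of NFKO. Muc13, with medians of 16 and 15 UMIs per cell, was at 1212 and 1257 CPM (1.04, 1.01 to 1.07).

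Cycling cells held part of the set. Cluster 6, led by the mitotic genes Ccnb2 and Cenpa, and cluster 15, led by Mxd3 and the histone gene Hist1h1b, carried markers of secretory progenitors. Clusters named from progenitor, stem or immune markers are given by number throughout. In cluster 6 (105 WT and 332 NFKO cells), Agr2 was at 15628 CPM in WT and 21505 CPM in NFKO, 58.8% and 78.8% of the goblet-like level, and Tff3 at 43.1% and 29.3%. Zg16 was at 6.75% and 2.34% of the goblet-like level there, with a median of 1 and 11 UMIs per cell. The order was the same in cluster 15, with Agr2 at 53.3% and 64.3%, Tff3 at 35.7% and 25.3% and Zg16 at 2.72% and 1.27%. Of the 10 genes, 0 differed by 1.5-fold between the libraries in cluster 6, beside 3.38% of 2812 genes higher and 2.52% lower. Cluster 5, led by the stem cell gene Olfm4, was mixed, with the 10 genes at a lower quartile of 0.109% and an upper quartile of 2.92% of the UMIs of a WT cell. Clca1 (3.35), Zg16 (3.24), Fcgbp (1.90) and Agr2 (1.58) were at least 1.5-fold higher in NFKO in cluster 5, beside 3.07% of 2962 genes, and 0 were lower, beside 2.94%.

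The genes with the most similar profiles were sought over 43 cluster-by-library profiles, as Pearson's r of log2 CPM with a pseudocount of 1, among 6872 genes. Profiles of a library share its background and many clusters share a class, so r is a description. Of the genes below, Capn9, Lrrc26, Bcas1, Pla2g10, Rep15 and Ccl9 were among the goblet markers that named clusters. Mmp7 was among the Paneth markers, and Gsta4 and Fer1l6 were leading genes of cluster 1. The uncharacterised gene 2010001K21Rik was among the 3 most similar genes of Muc2 (r = 0.929), Fcgbp (0.935), Clca1 (0.910) and Zg16 (0.874). The leading gene was Myof for Muc2 (0.934), Capn9 for Fcgbp (0.943), Fer1l6 for Clca1 (0.920) and Gsta4 for Zg16 (0.924), and the remaining places went to Lrrc26 for Muc2 (0.930), Bcas1 for Fcgbp (0.923), Capn9 for Clca1 (0.901) and Fer1l6 for Zg16 (0.897). Agr2 was closest to C1galt1c1 (0.903), the chaperone of core 1 mucin glycosylation, then Eif4ebp1 (0.900) and Galnt5 (0.880). Spink4 was closest to Ccl6 (0.971), Nupr1 (0.956) and Guca2a (0.947), and Retnlb to Ccl9 (0.918), Nupr1 (0.910) and Mmp7 (0.905), the Paneth cell protease that activates defensins. Tff3 was closest to Pla2g10 (0.903), AW112010 (0.901) and Rasd2 (0.899), Klk1 to Rep15 (0.918), Ccl6 (0.911) and Galnt5 (0.902), and Muc13 to Trpm4 (0.905), Ifi27l2b (0.888) and Clec2h (0.869). Within the set, r was highest between Clca1 and Zg16 (0.945) and lowest between Retnlb and Muc13 (0.350).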

How the data were processed

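Single-cell libraries of sorted Tomato+ cells were analysed, 1 WT and 1 NFKO. The authors aligned reads with Cell Ranger 5.0.1 to mm10 and deposited counts of UMIs per gene and barcode, 5051 barcodes for WT and 7540 for NFKO. Barcodes under 500 genes, under 1000 UMIs or above 25% of mitochondrial UMIs were left out. Doublet scores came from Scrublet in scanpy 1.11.5. Its own threshold marked 65 WT and 3 NFKO barcodes, so the highest scores were removed at 0.8% per 1000 cells, 126 and 340 barcodes. The kept cells were clustered as 1 set with Seurat 5.3.0 (R 4.3.3) on 2000 variable genes without the 10 mucus genes, with 30 principal components, 20 neighbours and resolution 0.8, and clusters were named from at least 3 other markers.

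Levels are UMIs summed over the cells of a class and library, per 1000000 UMIs (CPM), with exact Poisson intervals. Ratios have exact binomial intervals and shares of cells have Clopper-Pearson intervals. A gene was called at 1.5-fold either way, and the percentages over all genes cover those with at least 50 CPM in 1 library and 100 UMIs over both. The 10 genes were called without these minimums, and Retnlb was under 50 CPM in EEC-like, tuft-like and enterocyte-like cells. List genes needed 50 UMIs over both libraries. Detection was compared after thinning cells to 2000 UMIs, which left out 32 WT and 337 NFKO cells. A depth of 78722460 UMIs in WT and 111249126 in NFKO puts 3 counts at 0.0381 and 0.0270 CPM. With 1 library per genotype, no test was made. The ratio calculation was tested on simulated data (scipy 1.17.1). Of each list, the genes named were those with the 2 highest and 2 lowest ratios. The mucus genes and the lists were chosen with earlier results of these data known. Alternatives changed scaling, filters, doublets, clustering, cell weights and the cells included.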

Additional observations from a re-analysis of the deposited data

Results flagged for a closer look

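The NFKO over WT ratio of Zg16 went in opposite directions in different cells. It was 22.7 in Paneth-like cells and 0.594 in enterocyte-like cells. The enterocyte-like value pooled cluster 9, at 3.47, and cluster 16, at 0.442, and the median Zg16 count per cell in the class was 2 UMIs in WT and 10 in NFKO, with 27.2% and 30.2% of its UMIs in 3 cells. Within goblet-like cells the ratio of Zg16 was 2.12 in goblet-like cluster 1 and 0.627 in cluster 3, where NFKO had 24 cells. Tff3 had a ratio of 2.50 in tuft-like cells and 0.485 in enterocyte-like cells. Here too cluster 9 (1.80) and cluster 16 (0.433) went opposite ways in summed UMIs. The median enterocyte-like cell held 2 Tff3 UMIs in WT and 7 in NFKO, and 3 cells held 61.4% of the Tff3 UMIs of WT tuft-like cells. These differences were not tested, since each genotype had 1 library.

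Barcodes outside the comparisons also held the mucus genes. In barcodes that failed the filter, the 10 genes held 2.17% of UMIs in NFKO and 0.631% in WT. In barcodes removed as doublets they held 8.67% in NFKO and 4.35% in WT. Zg16 was at 6248 CPM in the failed barcodes of NFKO and 877 CPM in those of WT, while Agr2 was at 1408 and 522 CPM. Their part in the levels of non-goblet classes was not tested.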

How the results depend on the processing

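The count of genes with the highest CPM in goblet-like cells, 8 of 10, was the same under all alternatives run for it. In goblet-like cells, 4 genes were called higher in NFKO and 0 lower. The higher count was 2 without the clusters led by Hspa1a or Hspa1b. The remaining alternatives on clusters were chosen after seeing the data, and gave 0 without cluster 1, 0 in cluster 0 alone, 2 in cluster 1 alone, 1 in cluster 3 alone and 0 with clusters weighted by their WT share of cells. The lower count was 1 with the mean over cells, at resolution 0.4, in cluster 0 alone and in cluster 3 alone. Tff3, below 1.5-fold in the main result, was at least 1.5-fold higher in 2 of 22 alternatives. Ratios that changed direction were those of Muc2 (0.861) and Clca1 (0.801) without cluster 1, of Muc2 (0.748), Fcgbp (0.890), Clca1 (0.574) and Zg16 (0.680) in cluster 0 alone, and of Clca1 (0.729) and Zg16 (0.627) in cluster 3 alone. With the 10 genes also left out of the totals, cluster 0 alone gave 0 higher and 2 lower (Muc2 0.727, Fcgbp 0.865, Clca1 0.558, Zg16 0.661), cluster 3 alone 1 and 1 (Clca1 0.722, Zg16 0.622), and cluster 1 alone 6 and 0. Under the same totals, Spink4 in cluster 1 over the other goblet-like cells of NFKO changed to 1.01.

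In Paneth-like cells, where 3 were called higher and 0 lower, 5 were higher with every deposited barcode placed by its own marker score, 5 at resolution 0.4, 5 in cluster 10 alone and 9 in male-typed cells, of which NFKO had 13. The lower count was 1 with the mean over cells and 1 in male-typed cells. In EEC-like cells, where 4 were higher and 1 lower, the lower count was 0 with the mean over cells, with every deposited barcode, with classes by own marker score and without the 3 highest cells of each gene, and 2 in male-typed cells. Retnlb there changed direction to 1.07 with every deposited barcode and to 1.29 with classes by own marker score. The cause was not tested.

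With no CPM minimum and a UMI minimum of 20 in place of 100, the genes tested in goblet-like cells went from 2385 to 12224 and the share higher from 4.57% to 10.1%. The genes past 1.5-fold went from 109 to 1236 higher and from 93 to 931 lower in goblet-like cells, from 60 to 1486 and from 33 to 809 in Paneth-like cells, and from 106 to 1245 and from 119 to 1217 in EEC-like cells. No paired analysis was possible because each genotype had 1 library and no test was made. Retnlb had 23 UMIs in cluster 1 of WT, so its ratios there rest on few counts.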

Other observations

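Cluster 12 (28 WT and 251 NFKO cells, median 2108 and 1745 UMIs per cell) was led by Rpgrip1, AY036118, Gm26917, Lars2 and Gm42418 and took no cell type name. The 10 mucus genes held 6.42% of its UMIs in WT and 7.27% in NFKO, and its median cell gave them 1.31% and 6.37%. In cluster 14 (140 and 108 cells), led by Nnat, Slfn8, Ankrd31, Klhl31 and Pdk4, the median cell gave them 0.248% and 1.04%.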
